A study of Mus musculus with 48 samples.

Results

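Enteroendocrine cells (EECs) of the colon were compared with those of the duodenum in 32 of the 48 mouse libraries of the series. The libraries were chosen by their tissue label, with 16 from the top 5 cm of the small intestine, called duodenum here, and 16 from the colon and rectum together, called colon. The 16 ileum libraries were left out of the comparison. Each library holds RNA of EYFP-positive cells sorted from 1 region of 1 mouse. The cells came from lean male mice on a C57BL6 background, about 20 weeks old at surgery, that carried a Cre recombinase driven by the NeuroD1 promoter and a Cre-dependent EYFP reporter. All groups therefore share both transgenes, and the sorted cells are those in which the NeuroD1 promoter had driven Cre. The mice underwent vertical sleeve gastrectomy (VSG, removal of most of the stomach), a sham operation with free feeding (S_al) or a sham operation with matched body weight (S_wm). Tissue was taken 6 weeks later, about 15 min after an oral glucose load of 3 g/kg that followed an overnight fast. In each region there were 5 S_al, 5 S_wm and 6 VSG libraries. Both regions were available for 15 of the 17 mice, whereas mouse 17 contributed only the duodenum and mouse 24 only the colon. The colon was digested with 30 mM EDTA and the duodenum with 15 mM, so that this step moved with the region and its part in the results was not tested.

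EECs are scattered hormone-secreting cells of the gut epithelium that sense nutrients, bile acids, microbial products and stretch, and release peptides and serotonin towards blood and nerves. They arise from crypt progenitors under a transcription factor cascade that includes Neurog3 and Neurod1. Which peptides they make depends on their position along the gut: GIP, CCK, secretin and ghrelin are textbook products of the proximal small intestine, and PYY, GLP-1 and INSL5 of the distal gut.

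Between 4648651 and 8777721 reads were counted per colon library and between 5254340 and 17182463 per duodenum library. The share of counts from mitochondrial genes was 15.7 to 26.9% in colon (median 19.7%) and 8.98 to 29.3% in duodenum (median 13.7%). The pan-EEC gene Chga was abundant in all libraries, whereas several others had lower medians in colon. In counts per 1000000 counts of the library (CPM), after scaling for library composition, the granin gene Chga lay at 12780 to 40170 in colon (median 20220) and at 3960 to 24680 in duodenum (median 17600). Median levels in duodenum and colon were 372 and 98.8 CPM for Scg3, and 1514 and 526.5 CPM for Cpe. Scg2, Pcsk1 and Neurod1, given below, also had lower medians in colon. In 3 libraries the markers stood apart or the labels were crossed. The duodenum library of mouse 27 (S_wm) had 144 CPM of Neurod1 against 467.5 or more in the other 15 duodenum libraries, and 59240 CPM summed over 13 enterocyte marker genes against 18750 or less in the others. The colon library of mouse 30 (VSG) held no count of Hoxd13 and 25.1 CPM of Hoxb13, a posterior gut gene that reached at least 59.8 CPM in the other 15. For mouse 12 the tissue label and the segment code were crossed between ileum and colon. Its colon-labelled library held 56.1 CPM of Hoxb13 and 0.469 CPM of the ileal bile acid binding gene Fabp6, against 0 and 818 CPM in its ileum-labelled library, all scaled to total counts alone, so the tissue label was used. Every one of the 103 named genes that passed the threshold below kept its call and sign without the library of mouse 27 or of mouse 30.

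The second library index, a barcode added in preparation, almost coincided with the region. Index D502 marked 12 duodenum libraries, D503 and D504 marked 4 and 11 colon libraries, and D501 marked 4 duodenum libraries and the colon library of mouse 12. Apart from that 1 library, index and region cannot be told apart. Within D501, the colon library of mouse 12 lay outside the range of the 4 duodenum libraries in the direction of the whole comparison for 67.7% of the genes that passed the threshold, and for 90 of the 103 named ones. The D501 libraries were in the fit that chose these genes, so the share is not a separate test. The 4 duodenum libraries include that of mouse 27. With the second index as a covariate, which leaves the contrast to rest largely on that library, 1892 genes passed, and of the 103 named genes 67 kept their call, 32 lost it and 4 changed sign. Lost calls went with smaller log2 differences than in the comparison below for some genes, such as Sct (-0.67), Maoa (0.22) and Cnr1 (-4.77). For others, such as Penk (-6.53), Hhex (-6.60) and Scn9a (-7.28), the log2 difference was larger. These last 3 had 0 CPM in the colon library of mouse 12.

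The sorted cells of colon and duodenum differed in most of the genes tested. Of 14869 genes tested with edgeR's quasi-likelihood test, 8208 (55.2%) differed at an adjusted p under 0.05, with 4157 (28%) higher and 4051 (27.2%) lower in colon. The difference is the mean of the colon minus duodenum differences within the 3 surgery groups, on the log2 scale, and its median over all genes tested was 0.0035. Large differences were common, with 200 genes more than 5 log2 units higher in colon and 209 more than 5 lower. For 1477 genes (9.93%) the 16 colon and 16 duodenum libraries did not overlap, and all of these passed the threshold. The 738 of them that were lower in colon made up 11.7 to 14.2% of the counts of a duodenum library and 2.01 to 2.61% of a colon library. The 739 that were higher in colon made up 5.43 to 6.98% of a colon library and 1.19 to 2.27% of a duodenum library. In bulk samples such as these, fewer cells of a type and less RNA per cell cannot be told apart.

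**Figure D1:**
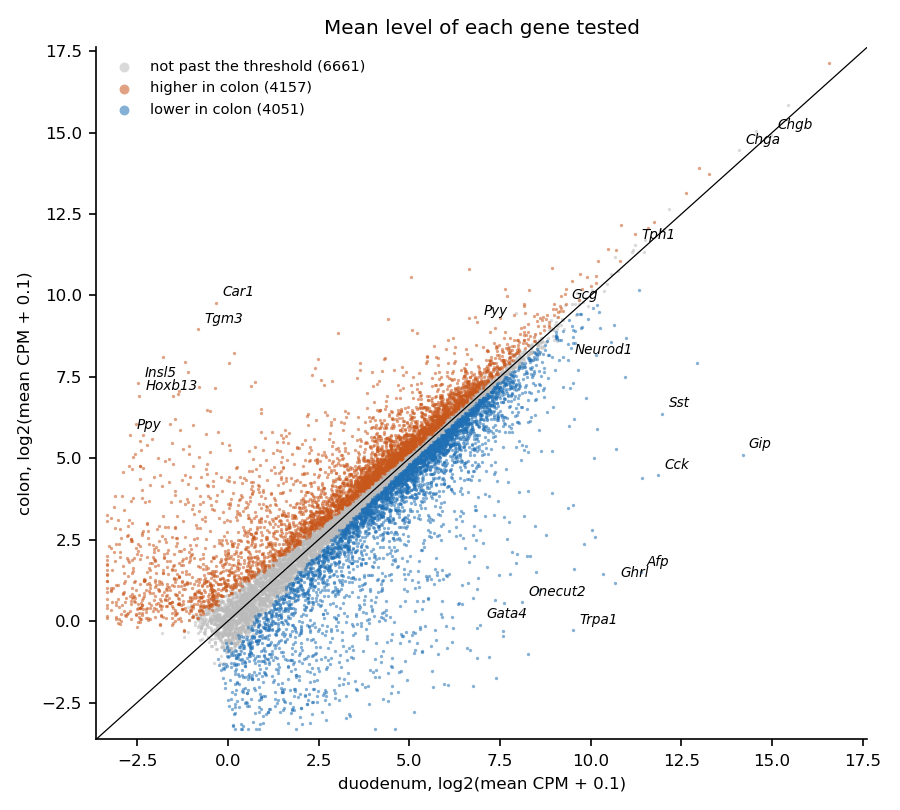
Mean CPM of each of the 14869 genes tested, as log2(mean CPM + 0.1), in the 16 duodenum libraries (horizontal axis) and the 16 colon libraries (vertical axis), with the diagonal of equal level. Orange points are the 4157 genes higher in colon, blue points the 4051 lower, and grey points the rest. Chga, Chgb and Tph1 lie near the diagonal, and Gip, Cck, Ghrl, Afp and Trpa1 lie far below it.

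Most of the 8208 genes had differences of the same sign in the surgery groups. Of these genes, 8050 had the same sign in S_al, S_wm and VSG mice, and 3151 went in 1 direction in all 15 mice with both regions. The genes were chosen on the mean of the same 3 group differences, so a shared sign was in part fixed by that choice. Tested within a group, 4782 genes (32.2%) differed in S_al, 4995 (33.6%) in S_wm and 5432 (36.5%) in VSG mice, and 3347 passed with the same sign in all 3. No gene passed the joint edgeR test of whether the difference itself varied with surgery (lowest adjusted p = 0.42), where 4.77% of genes had an unadjusted p under 0.05. DESeq2 found 11 such genes and an edgeR fit with the mouse as a fixed block found 2. On the first principal component of the 500 most variable genes, which held 90.4% of their variance, colon libraries lay between 47.5 and 62.3 and duodenum libraries between -60.9 and -54.2.

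Most gut peptide genes differed between the regions. Of 20 peptide genes listed, 16 were measured well enough to test. Among these, 10 fell in colon, 3 rose and 3 did not pass, so that 13 of 16 passed where 55.2% of all genes did, with a median log2 difference of -3.33. In 9 of the 16 no colon library overlapped a duodenum library, as in 9.93% of all genes tested.

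Gip encodes the incretin of proximal K cells. It ranged from 8905 to 29270 CPM in duodenum (median 18490) and from 6.18 to 101 CPM in colon (median 19.8). The lowest duodenum library thus stood far above the highest colon library, and the log2 difference was -9.04 ± 0.51 (SE, edgeR adjusted p = 1.0e-15). Cck, whose product cholecystokinin drives gallbladder contraction, ranged from 1114 to 5717 CPM in duodenum (median 3729) and from 5.46 to 39.8 in colon (median 23.3). It was lower in colon in 15 of 15 mice (log2 difference -7.37 ± 0.28, edgeR adjusted p = 2.1e-20). Ghrl, the gene of the hunger hormone ghrelin, had 344 to 2385 CPM in duodenum (median 1708) and 0.628 to 3.92 in colon (median 2.41), a log2 difference of -9.57 ± 0.28 (edgeR adjusted p = 3.0e-23). For Cck and Ghrl the lowest duodenum value was that of the mouse 27 library.

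Sst, the somatostatin gene of D cells, fell from a median of 3706 CPM (978 to 7628) in duodenum to 64.1 (24.2 to 256) in colon, again without overlap (log2 difference -5.56 ± 0.37, edgeR adjusted p = 5.8e-14). Smaller falls with overlapping ranges were seen for Sct, the secretin gene, and Tac1, the substance P precursor of enterochromaffin cells. Sct had a median of 1502 CPM (378 to 2462) in duodenum and 363 (176 to 759) in colon, where it fell by 1.98 ± 0.19 on the log2 scale. Tac1 had medians of 232 CPM (45.04 to 353) and 60.8 (24.5 to 119), with a log2 difference of -1.70 ± 0.24. Each was lower in colon in all 15 mice.

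Among less abundant peptides, Cartpt, which encodes a neuropeptide precursor, went from 11.04 to 78.2 CPM in duodenum to at most 1.76 CPM in colon, and Ucn3, the urocortin 3 gene, from 14.6 to 126 CPM to at most 1.42 (log2 differences -6.08 ± 0.30 and -7.09 ± 0.31). Penk, the enkephalin precursor, lay at 0.140 to 8.68 CPM in duodenum and at 0.516 CPM or less in colon (log2 difference -4.67 ± 0.64). Gast, the gastrin gene, was not counted once in the 16 colon libraries. In duodenum it had a count in every library, with 99.8 to 124 CPM in 3 of them, 19.1 and 27.7 CPM in 2 more and 0.147 to 3.93 CPM in the other 11. Against a limit of 3 counts over all colon libraries, its pooled level, 4388 counts over all duodenum libraries, was at least 1105-fold higher in duodenum, and the deepest library, that of mouse 13, was among those 3 (edgeR adjusted p = 0.0017).

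The peptide genes that rose in colon were Insl5, Pyy and Adm. Insl5, a relaxin-family peptide of distal L cells, had no count in 9 duodenum libraries, at most 0.373 CPM in the others, and 53.1 to 460 CPM in colon (median 138). Its log2 difference was 10.7 ± 0.51 (edgeR adjusted p = 5.8e-17), with 10.26 in S_al, 10.94 in S_wm and 10.88 in VSG mice. Pyy, the peptide YY gene, had 36.1 to 265 CPM in duodenum (median 108) and 266 to 1178 in colon (median 578), so that the ranges only just failed to meet, and was higher in colon in 15 of 15 mice (log2 difference 2.33 ± 0.23, edgeR adjusted p = 7.0e-10). Adm, which encodes the vasodilator adrenomedullin, rose from a median of 1.47 CPM to 4.53 CPM with overlapping ranges (log2 difference 1.87 ± 0.24).

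Gcg, Iapp and Nts did not pass. Gcg, the proglucagon gene that gives GLP-1 in L cells, had 192 to 1327 CPM in duodenum (median 562) and 188 to 1909 in colon (median 753). It was higher in colon in 8 mice and lower in 7, with a log2 difference of 0.39 ± 0.26 (edgeR adjusted p = 0.22). Iapp, the amylin gene, had medians of 46.2 and 59.1 CPM (adjusted p = 0.24). Nts, the neurotensin gene, had medians of 436 CPM in duodenum and 345 in colon and was lower in colon in 11 of 15 mice (log2 difference -0.45 ± 0.21, adjusted p = 0.073). Its call depended on the fit: with the mouse as a fixed block the adjusted p was 0.024, and without the duodenum library of mouse 27 it was 0.029. Nmb, Calca, Calcb and Gal did not pass the filter on low counts, with no library above 2.35 CPM.

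**Figure D2:**
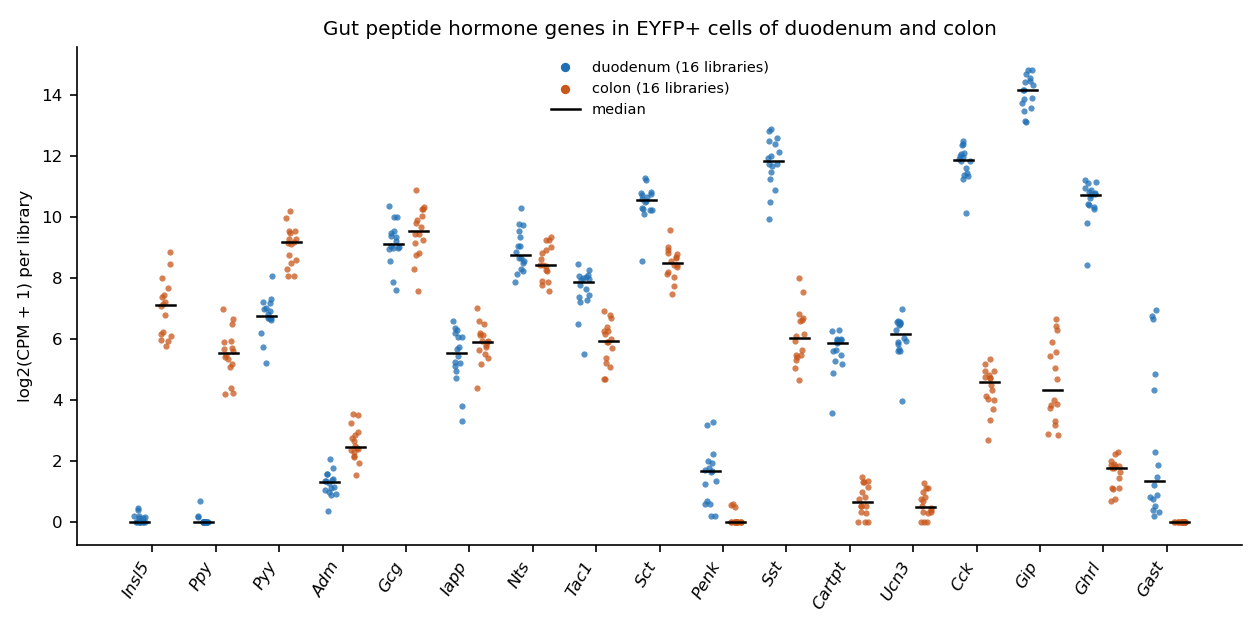
Level of the 16 tested gut peptide genes and of Ppy in each library, as log2(CPM + 1), with duodenum in blue, colon in orange and the median as a black bar, ordered by the log2 difference. The ranges of Gcg, Iapp and Nts overlap in the 2 regions, Insl5 and Ppy are at or near 0 in duodenum, and Gip, Cck, Ghrl and Sst sit apart in the 2 regions.

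The pancreatic polypeptide gene Ppy, outside that list but among the largest differences of all genes, moved with its neighbour Pyy. The pair lies on the minus strand of chromosome 11 (GRCm38), Ppy at 102099930 to 102101319 and Pyy at 102106676 to 102107832, with 5356 bases between them. Ppy had no count in 13 duodenum libraries and at most 0.611 CPM in the others, whereas all colon libraries had 17.3 to 127 CPM (median 45.7). Its log2 difference was 9.77 ± 0.47 (edgeR adjusted p = 2.6e-17), whereas Pyy transcripts were also present in every duodenum library.

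The bases before the start of 3 peptide genes are shown because Gata4, described below, was among the regional factors with large differences. All 3 hold the motif marked here, and several other peptide genes do not. They are the 250 bases upstream of the start, 5′ to 3′ on the gene's strand, from RefSeq (GRCm38.p6), with matches to AGATAA in capitals. These letters, searched on both strands, are of the type bound by GATA factors. Gip is on the plus strand at chr11:96024295-96024544, and Cck and Insl5 are on the minus strand at chr9:121495695-121495944 and chr4:103026729-103026978.
Gip: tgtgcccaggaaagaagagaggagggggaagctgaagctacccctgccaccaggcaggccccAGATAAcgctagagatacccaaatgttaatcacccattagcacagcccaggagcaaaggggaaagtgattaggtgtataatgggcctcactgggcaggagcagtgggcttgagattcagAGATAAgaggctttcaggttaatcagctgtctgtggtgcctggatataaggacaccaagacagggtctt
Cck: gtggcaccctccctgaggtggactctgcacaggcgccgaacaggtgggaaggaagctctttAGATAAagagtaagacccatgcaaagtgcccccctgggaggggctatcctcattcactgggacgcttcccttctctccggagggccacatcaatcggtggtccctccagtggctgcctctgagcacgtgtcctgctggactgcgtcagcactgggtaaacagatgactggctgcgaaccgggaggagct
Insl5: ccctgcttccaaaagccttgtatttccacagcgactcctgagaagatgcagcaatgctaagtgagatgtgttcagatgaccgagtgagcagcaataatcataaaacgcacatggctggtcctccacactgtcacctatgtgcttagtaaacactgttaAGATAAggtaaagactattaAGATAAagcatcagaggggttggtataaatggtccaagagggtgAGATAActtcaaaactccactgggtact
The motif occurred 2 times before Gip, 1 time before Cck and 3 times before the Insl5 start used here. That Insl5 start lies 114 bases inside the gene's span in the annotation of the counts. All 3 matches are 92 to 23 bases before it, so by that annotation they fall inside the gene. Mptx1, described below and also higher in colon, held 1 match before its start, so the motif was found before genes of either direction. Of all 32851 promoters in the table, counted per start, 9.99% held the motif in these 250 bases. The next shares instead count genes with a match at any of their starts. They were 11.6% of 567 non-overlapping genes lower in colon, 8.97% of 546 higher in colon and 7.58% of the 10829 tested genes that had a promoter. Of the 33 peptide and most different genes, 24 had a promoter in the table. At the start nearest to the annotated one, 6 of these held the motif, and the 3 printed genes are among these 6. Of the other peptide genes that passed, Tac1 held it, whereas Pyy, Sct, Sst, Ghrl, Gast, Cartpt, Ucn3 and Adm did not.

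Serotonin genes went in both directions. Of 11 tested, 2 rose, 5 fell and 4 did not pass (median log2 difference -0.08), a share near the 55.2% of all genes that passed. Tph1, the rate-limiting enzyme of serotonin synthesis in the gut, had a log2 difference of 0.34 and did not pass. Slc18a2, a vesicular monoamine transporter, was the exception in size, with 17.2 to 60.5 CPM in duodenum (median 33.1) and 0.195 to 4.90 in colon (median 1.06). It was lower in colon in all 15 mice (log2 difference -4.67 ± 0.26, edgeR adjusted p = 3.5e-16), whereas the other vesicular transporter, Slc18a1, had -0.08 and did not pass. The serotonin reuptake transporter Slc6a4 fell from a median of 16.4 CPM to 8.78 CPM (log2 difference -1.05 ± 0.16). Maoa, which degrades serotonin, rose from a median of 124 CPM to 379 CPM (log2 difference 1.32 ± 0.25) in 14 of 15 mice. The duodenum library of mouse 27 reached 787 CPM of Maoa, where the next highest had 208. Spr, Qdpr and Gch1, enzymes of tetrahydrobiopterin metabolism, differed by 0.50, -0.60 and -0.42 log2 units.

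Granins and prohormone processing genes were divided. Of 16 tested, 2 rose, 8 fell and 6 did not pass (median -0.28), again near the 55.2% of all genes. Chga, Chgb and Vgf had log2 differences of 0.39, -0.04 and -0.01 and did not pass. Scg2, the secretogranin II gene, ranged from 327 to 1450 CPM in duodenum (median 1112) and from 10.1 to 54.2 CPM in colon (median 33.4), a log2 difference of -5.08 ± 0.26 without overlap. Pcsk1 and Pcsk2 encode the endoproteases that cut prohormones. Pcsk1 fell from a median of 1019 CPM (238 to 1199) to 116 (67.0 to 176), and Pcsk2 from 26.7 CPM (9.72 to 41.7) to 0.408 (0 to 2.45), with log2 differences of -3.02 ± 0.16 and -5.70 ± 0.29. Pcsk2 overlaps an antisense gene, and whether strand was used in counting is not given. The protease inhibitor gene Pcsk1n went the other way, from 29.3 to 144 CPM in duodenum (median 95.9) to 381 to 1020 CPM in colon (median 597, log2 difference 2.66 ± 0.16, edgeR adjusted p = 1.1e-15). Resp18 rose by 0.83 ± 0.15 log2 units. Mboat4, the enzyme that acylates ghrelin, fell with Ghrl (log2 difference -3.60 ± 0.43, medians 3.81 and 0.169 CPM).

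Most EEC transcription factor genes were lower in colon. Of 23 tested, 18 fell, 2 rose and 3 did not pass, with a median log2 difference of -1.04, where 27.2% of all genes fell. Neurod1, whose promoter drove Cre for the sort, had a median of 672 CPM (144 to 960) in duodenum and 248 (161 to 390) in colon, a log2 difference of -1.34. Isl1, a LIM homeodomain factor of several EEC types, fell without overlap from a median of 114 CPM (47.1 to 171) to 10.2 (3.75 to 20.1), by 3.38 ± 0.24 on the log2 scale (edgeR adjusted p = 1.9e-13). Neurod2 and the D cell factor Hhex were low, with medians of 3.29 and 2.33 CPM in duodenum and 0.220 and 0 CPM in colon. Pax4 (log2 difference 0.61 ± 0.18) and Foxa1 (0.50 ± 0.12) rose, and Insm1, Fev and Sox4 did not pass.

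Many factors that pattern the gut along its length differed between the 2 regions without overlap. Of 19 tested, 7 rose and 10 fell (median -0.28), and 11 did not overlap between regions, as 9.93% of all genes did not. Onecut2 had 200 to 345 CPM in duodenum (median 265) and at most 8.30 CPM in colon (median 0.891, log2 difference -7.83 ± 0.31). Gata4, which maintains jejunal and duodenal identity, had 101 to 202 CPM in duodenum (median 122) and at most 2.54 in colon (median 0.569), with a log2 difference of -7.24 ± 0.25 (edgeR adjusted p = 3.1e-21). Pdx1, a factor of the proximal duodenum and pancreas, had 40.8 to 139 CPM against at most 3.02 CPM (log2 difference -5.86 ± 0.29), and Meis2 had 4.51 to 18.99 CPM against at most 1.62 (-4.76 ± 0.37).

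In the other direction, Osr2 rose from 0.117 to 6.30 CPM in duodenum (median 3.04) to 31.1 to 69.2 CPM in colon (median 53.6), with a log2 difference of 4.18 ± 0.27 (edgeR adjusted p = 2.2e-14). The homeobox genes Cdx1 (1.48 ± 0.08) and Isx (1.04 ± 0.09) rose by less, again without overlap, and Cdx2 also rose.

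Hox genes, whose clusters are expressed in order along the body axis, went almost all in 1 direction. Of the 22 of 39 Hox genes that were tested, 21 rose in colon, none fell and Hoxb2 did not pass, where 28% of all genes rose. Their median log2 difference was 5.13, and 14 of the 22 did not overlap between regions, as 9.93% of all genes did not. Hoxb13, the most 5′ member of its cluster, had 11 counts in all duodenum libraries together and 25.1 to 212 CPM in colon (median 119), a log2 difference of 10.75 ± 0.40 (edgeR adjusted p = 9.0e-18). Its colon level was lowest in the mouse 30 library, and the difference was 9.74 in S_al, 9.95 in S_wm and 12.55 in VSG mice. No VSG duodenum library held a count of Hoxb13, so the size of the VSG value is not measured. Its colon level was 25.1 to 136 CPM in VSG, 59.8 to 205 in S_al and 116 to 212 in S_wm mice. Hoxb9 had at most 1.33 CPM in duodenum and 82.5 to 163 CPM in colon (8.96 ± 0.23), and Hoxb6 at most 0.445 CPM and 27.9 to 56.9 CPM (8.56 ± 0.25). Hoxd13 had 2 counts in all of duodenum, and 0 to 29.3 CPM in colon, where only the mouse 30 library lacked it. The ratio of its pooled levels was 970 (95% counting interval 268 to 8017).

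The size of the difference varied along the clusters. In Hoxb on chromosome 11, the log2 difference was 0.08 for Hoxb2, 2.56 for Hoxb3, 1.40 for Hoxb4 and 5.20 for Hoxb5, and between 7.30 and 10.75 for Hoxb6, Hoxb7, Hoxb8, Hoxb9 and Hoxb13. In Hoxa on chromosome 6, 9 of 9 tested genes rose, by 2.10 (Hoxa4) to 6.09 (Hoxa13). In Hoxd on chromosome 2, Hoxd8, Hoxd11 and Hoxd13 rose, and in Hoxc on chromosome 15 only Hoxc6 was tested. A further 6 Hox genes, all untested, had no count in duodenum. Hoxa3 to Hoxa6 overlap the antisense gene Hoxaas3 and Hoxb2 and Hoxb3 overlap Hoxb3os, as Hoxb5, Hoxa11 and Hoxd8 overlap Hoxb5os, Hoxa11os and Hoxd3os1, so their counts are uncertain.

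**Figure D3:**
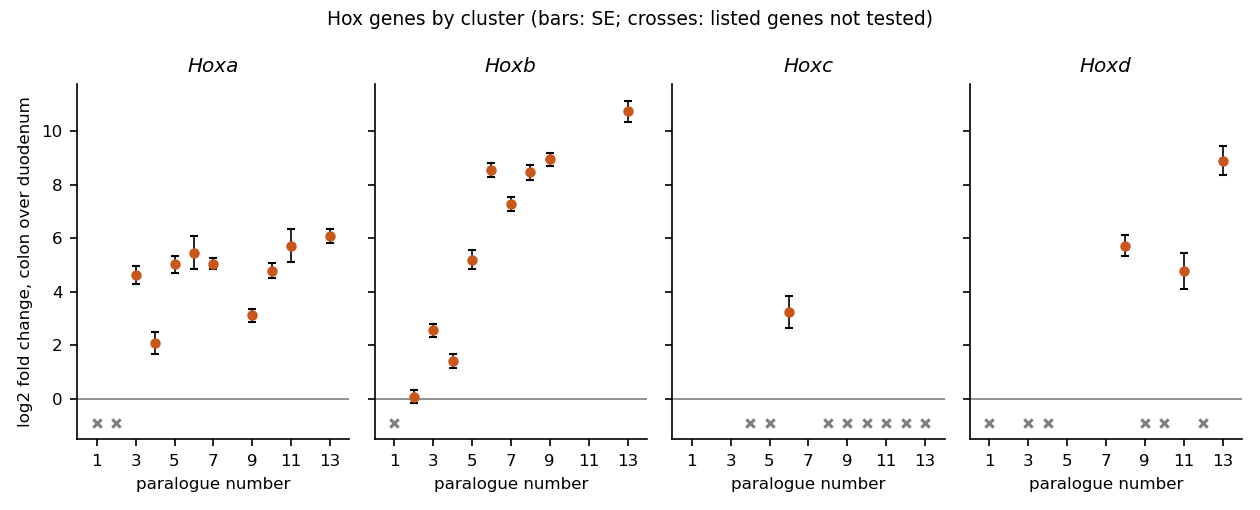
Log2 difference between colon and duodenum for Hox genes, by cluster (panels) and paralogue number (horizontal axis), with bars of 1 SE. Grey crosses below the zero line are listed genes that were not tested, and all tested genes lie above 2 except Hoxb2 at 0.08 and Hoxb4 at 1.40.

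Receptors for nutrients and metabolites split in both directions. Of 16 tested, 5 rose, 6 fell and 5 did not pass (median -0.21), where 28% of all genes rose and 27.2% fell. Casr, the calcium and amino acid sensor, fell from a median of 52.6 CPM (8.68 to 91.6) to 5.47 (1.73 to 12.7), by 3.02 ± 0.23 on the log2 scale. Ffar1, a receptor for long-chain fatty acids, fell without overlap from a median of 91.5 CPM (25.8 to 111) to 18.1 (5.27 to 25.5), by 2.33 ± 0.19 (edgeR adjusted p = 6.4e-12). The short-chain fatty acid receptor Ffar3 and the tryptophan-sensing Gpr142 were low in both regions and fell, with medians of 4.77 and 2.06 CPM in duodenum and 0.862 and 0.259 CPM in colon.

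The largest rises at 1 CPM or more were those of a pair of olfactory-type receptors. Olfr78 and Olfr558, which bind short-chain and branched fatty acids, had medians of 2.05 and 1.52 CPM in duodenum. In colon they reached 24.4 to 68.0 CPM (median 46.4) and 24.4 to 57.5 CPM (median 40.6), with log2 differences of 4.17 ± 0.22 and 4.76 ± 0.22 and no overlap. Gpr35 rose by 1.33 ± 0.17, and the bile acid receptor Gpbar1 by 1.96 ± 0.47 from low levels (medians 0.341 and 1.94 CPM). The long-chain fatty acid receptor Ffar4 and the lipid amide receptor Gpr119 did not pass, with log2 differences of 0.06 and -0.42.

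Among 24 receptors for hormones and transmitters, 11 rose, 9 fell and 4 did not pass (median 0.49), so that 20 of 24 passed where 55.2% of all genes did. Cnr1, the cannabinoid receptor CB1, had 45.9 to 173 CPM in duodenum (median 85.9) and at most 1.39 CPM in colon, a log2 difference of -7.85 ± 0.30 (edgeR adjusted p = 8.8e-20). The muscarinic receptors Chrm4 and Chrm3 fell by 4.01 ± 0.29 and 2.44 ± 0.23 log2 units without overlap, and the melanocortin receptor Mc4r by 2.87 ± 0.41. Agtr1a, the angiotensin II receptor, rose from at most 0.498 CPM to 0.612 to 18.2 CPM (median 5.36, log2 difference 6.67 ± 0.59). Rxfp4, the receptor of INSL5, and Cckar, a receptor of CCK, were near 0 in duodenum and had medians of 1.62 and 1.18 CPM in colon (log2 differences 4.58 ± 0.58 and 4.72 ± 0.63). The serotonin receptor Htr4 rose from a median of 0.935 CPM to 8.62 CPM without overlap (3.02 ± 0.25).

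Channels were mostly lower in colon. Of 26 tested, 16 fell, 6 rose and 4 did not pass, where 27.2% of all genes fell and 28% rose, with a median log2 difference of -0.82. Trpa1, the irritant receptor of enterochromaffin cells, had 195 to 1185 CPM in duodenum (median 637) and at most 2.31 CPM in colon, where its median was 0.542. At -10.14 ± 0.33 this was the lowest log2 difference of any gene named here (edgeR adjusted p = 1.1e-21). Piezo2, a mechanosensitive channel, showed the opposite, with at most 1.33 CPM in duodenum and 43.1 to 324 CPM in colon (median 115, log2 difference 8.84 ± 0.43, edgeR adjusted p = 7.2e-17). Its relative Piezo1 rose by 1.96 ± 0.24, Kcnma1 by 1.53 ± 0.13 and Trpm4 by 1.499 ± 0.16. The sodium channel gene Scn9a fell from a median of 3.81 CPM to 0, and Kcnj11, the pore of the ATP-sensitive potassium channel, from 29.4 CPM to 4.37 CPM (log2 differences -4.80 ± 0.52 and -2.48 ± 0.22).

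**Figure D4:**
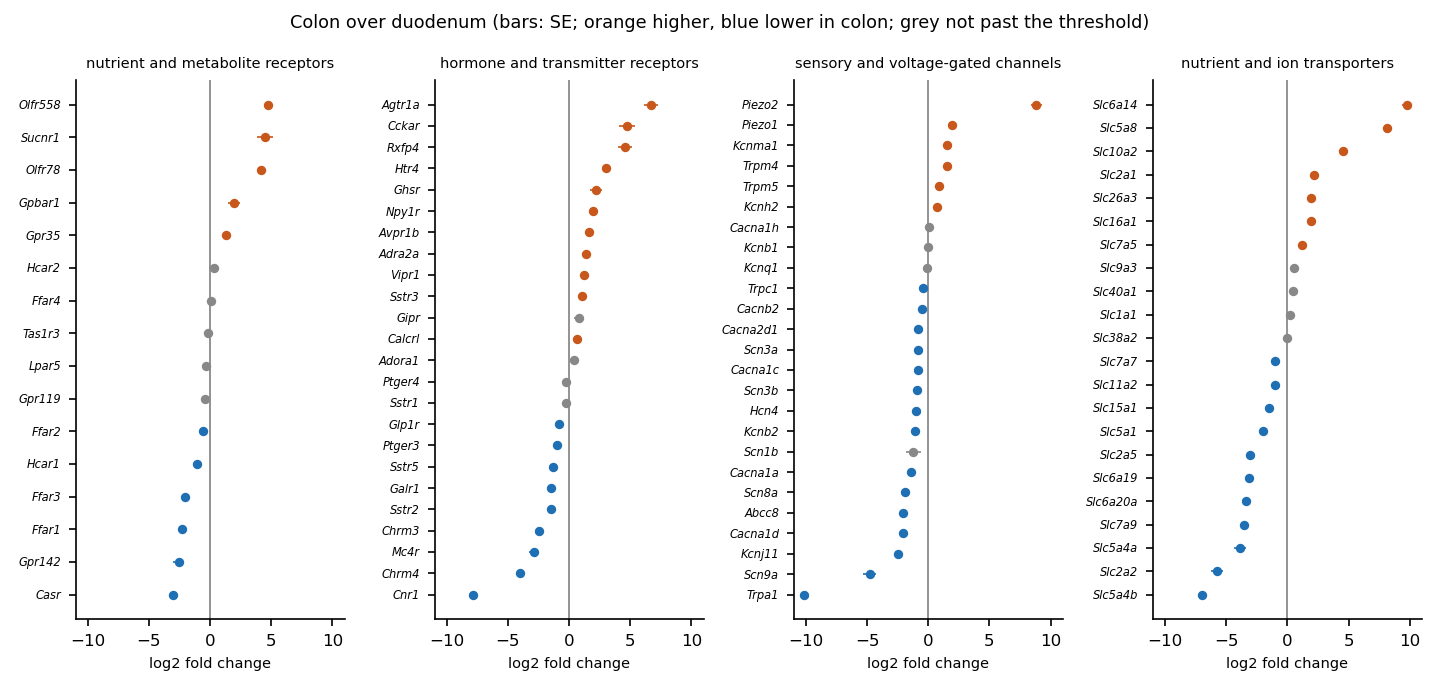
Log2 difference between colon and duodenum, with bars of 1 SE, for the tested genes of 4 lists that are reported here: nutrient and metabolite receptors, hormone and transmitter receptors, channels and transporters. Orange genes are higher in colon, blue genes lower and grey genes did not pass. Piezo2 and Trpa1 mark the ends of the channel panel, and Slc6a14 and Slc5a8 the top of the transporter panel.

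Transporter genes rose in 7, fell in 11 and did not pass in 4 of 22 cases (median -0.52), where 28% of all genes rose and 27.2% fell. Slc6a14, an amino acid transporter of distal gut, had at most 2.22 CPM in duodenum and 103 to 489 CPM in colon (median 238, log2 difference 9.78 ± 0.39), and Slc5a8, which carries short-chain fatty acids, at most 2.26 CPM and 129 to 364 CPM (median 255, 8.15 ± 0.28). The bile acid transporter Slc10a2 rose from a median of 0.810 CPM to 19.2 CPM (4.503 ± 0.27) and the glucose transporter Slc2a1 from 19.5 CPM to 89.9 CPM (2.18 ± 0.10), both without overlap. The SGLT3 gene Slc5a4b had 33.6 to 130 CPM in duodenum and at most 1.51 in colon (-6.99 ± 0.30). Slc2a2, the GLUT2 gene, had a median of 60.5 CPM (25.5 to 936) in duodenum and 0.896 (0.125 to 5.07) in colon, a log2 difference of -5.75 ± 0.49. Slc7a9 and Slc5a4a fell by 3.58 ± 0.32 and 3.92 ± 0.50 log2 units, with 209 and 71.5 CPM in the duodenum library of mouse 27 against medians of 27.3 and 4.57. That library also gave the highest Slc2a2 value, where the next had 86.6 CPM. Without it 9 transporter genes rose and 11 fell. Several of these genes are also expressed in enterocytes and colonocytes, whose markers are given below.

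Of 12 innate sensing genes tested, 9 rose, 3 did not pass and none fell, where 28% of all genes rose, with a median log2 difference of 0.72. With the second index as a covariate 2 of the 12 were higher. Tlr4, the lipopolysaccharide receptor, had at most 0.622 CPM in duodenum and 18.4 to 43.4 CPM in colon (median 31.4, log2 difference 7.58 ± 0.28, edgeR adjusted p = 1.1e-21). Its co-receptor Cd14 rose from a median of 2.27 CPM to 14.1 CPM (2.499 ± 0.35) and Tlr1 from 1.08 CPM to 14.3 CPM (3.13 ± 0.34), with ranges that overlapped. Nod2 rose by 1.47 ± 0.40 in 11 of 15 mice. Ptprc, which encodes CD45, the antigen excluded in the sort, had medians of 1.27 CPM in duodenum and 2.82 CPM in colon and did not pass. It is 1 of 4 immune markers tested, of which 3 fell. Without the duodenum library of mouse 27 none of the 4 fell and 1 rose. The part of immune cells in these rises was not tested.

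Vesicle exocytosis genes went in both directions. Of 25 tested, 9 rose, 8 fell and 8 did not pass (median 0.011), where 28% of all genes rose and 27.2% fell. Without the duodenum library of mouse 27, 12 fell. Syt4, a synaptotagmin, rose from a median of 0.114 CPM to 4.33 CPM (4.67 ± 0.54), and the vesicle genes Sv2a, Rab27a and Syt5 by 1.57, 1.06 and 0.76 log2 units. Cplx1, a complexin that clamps the fusion machinery, fell from a median of 41.2 CPM (17.96 to 63.9) to 1.08 (0 to 2.83) without overlap (-5.13 ± 0.25), and the calcium sensor gene Syt1 from 3.395 CPM to 0.161 CPM (-3.30 ± 0.43). Syt13 and Rab3c fell by 0.84 ± 0.16 and 0.75 ± 0.17.

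Immediate early genes, which respond to stimulation and to tissue handling, moved unevenly. Of 17 tested, 6 fell, 2 rose and 9 did not pass (median -0.32), a share of calls below the 55.2% of all genes. Egr2 and Nr4a2 fell without overlap, from medians of 15.7 and 47.7 CPM to 1.14 and 6.27 CPM (log2 differences -3.52 ± 0.33 and -2.85 ± 0.15). Zfp36 and Dusp1 fell, with log2 differences of -1.25 ± 0.22 and -0.9975 ± 0.23, whereas Nr4a1 rose by 1.27 ± 0.27 and Fosl1 by 2.31 ± 0.51. Dusp1 and Fosl1, like Piezo1, overlap a gene on the opposite strand. Fos, Fosb, Jun and Ier2 did not pass, with log2 differences of -0.16, -0.11, -0.32 and -0.23.

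The largest differences over all protein-coding genes at 20 CPM or more included genes of other cell types. Higher in colon, beside Hoxb13, Insl5, Slc6a14 and Ppy, were the carbonic anhydrase gene Car1 (308 to 1304 CPM in colon, at most 3.73 in duodenum, log2 difference 10.5 ± 0.41) and the pentraxin Mptx1 (39.2 to 740 CPM against at most 0.7496, 10.62 ± 0.52). The transglutaminase Tgm3 (137 to 1052 CPM against at most 2.24, 10.17 ± 0.46) and the thrombospondin Thbs4 (99.7 to 373 CPM against at most 2.86, 9.28 ± 0.37) completed the 8. Lower in colon, beside Trpa1, Gast and Ghrl, was Afp, the alpha-fetoprotein gene, with 789 to 4671 CPM in duodenum (median 2575) and 0.378 to 8.70 in colon (median 1.97, log2 difference -9.96 ± 0.38). The pepsinogen gene Pgc, the plasma protease inhibitor gene Pzp and the autotaxin gene Enpp2 had medians of 168, 310 and 101 CPM in duodenum and 0.192, 0.231 and 0 in colon. Habp2, which overlaps Nrap on the opposite strand, had 19.6 to 59.1 CPM and at most 0.408.

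Markers of other cells are given for comparison, and several moved with the region. Beside their counts, 55.2% of all genes passed, 28% higher and 27.2% lower in colon. All 13 enterocyte genes fell, and their summed level was 7033 to 59240 CPM in duodenum (median 9270) and 691 to 1243 in colon (median 878). Of 10 colonocyte genes 9 rose and 1 fell, with sums of 1010 to 3729 CPM in duodenum (median 1179) and 2667 to 4732 in colon (median 3908). No colonocyte gene fell without the duodenum library of mouse 27 or without mouse 12. Goblet cell genes rose in 6 of 8 cases and fell in 1, with medians of 3758 and 9778 CPM. Paneth cell genes fell in 6 of 7, with medians of 276 and 17.98 CPM. Without the duodenum library of mouse 27, which had 3886 CPM of Paneth genes, 5 fell and 1 rose. Crypt and cycling genes fell in 5 of 8 (medians 1274 and 181 CPM), led by Olfm4 with a log2 difference of -7.58, and Lgr5 did not pass. Tuft cell genes rose in 4 of 7 and fell in 1, with medians of 21.7 and 44.1 CPM. Sums over immune markers were 2.09 to 89.9 CPM in duodenum and 0.785 to 13.4 in colon, and the 3 of 4 tested immune genes that fell did not pass without the duodenum library of mouse 27, when 1 rose. None of the 8 pancreatic acinar genes was tested, with sums of 1.61 CPM or less. Of 8 stromal and muscle genes only 1 was tested and did not pass. Of 8 neuronal and glial genes 2 were tested, 1 rising and 1 falling. Neurod1 itself was lower in colon, as given above. The part of these cells in the differences of the other lists was not tested.

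**Figure D5:**
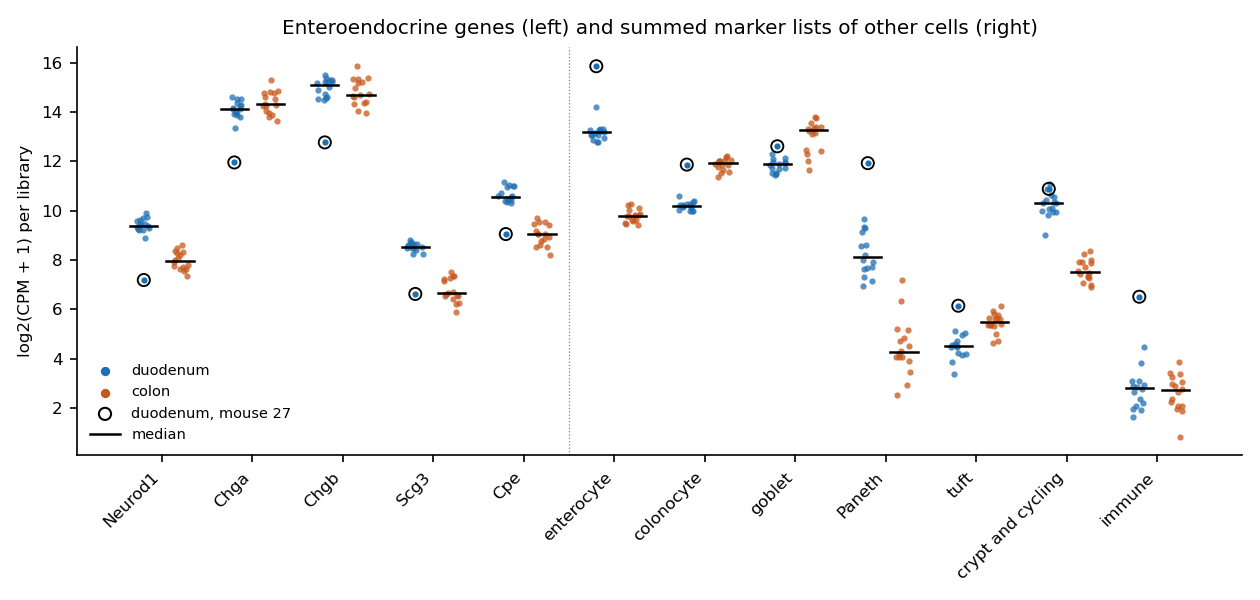
Levels of 5 EEC genes (left of the dotted line) and sums over 7 marker lists of other cells (right) in each library, as log2(CPM + 1), with duodenum in blue, colon in orange and the median as a black bar. Black circles mark the duodenum library of mouse 27, which is lowest of its region for Neurod1 (144 CPM) and Chga (3960 CPM) and highest for the enterocyte sum (59240 CPM).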

How the data were processed

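RNA of sorted EYFP-positive cells was prepared with a stranded total RNA kit and sequenced as single reads. The deposited values are raw counts per gene, which the authors made with STAR 2.5.1 on GRCm38; whether the counting used strand is not given in the sources used here. Libraries were grouped by tissue and surgery label. Of 53465 genes, 53360 matched the GENCODE annotation used for names and positions. Genes were filtered with filterByExpr over the 6 region and surgery groups, which left 14869, scaled by TMM and tested with the quasi-likelihood F-test of edgeR 4.0.16 (R 4.3.3, robust fit), with Benjamini-Hochberg adjustment over all genes tested and a threshold of 0.05. CPM values use the TMM-scaled library sizes. The SE is the absolute log2 difference divided by the square root of F. P-values and intervals cover the spread between these mice or counting error only.

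Both regions came from the same animal in 15 mice. Deviations from the group means, over 2000 genes, correlated within a mouse with a median of 0.1 (-0.0266 to 0.25), above 0.1 in 8 of 15. The model without a mouse block was kept as the main fit. Alternatives were DESeq2 1.42.0 and its size factors, other filters, all 48 libraries, mouse as a fixed block or as a random effect with limma 3.58.1, an additive model, the segment code of mouse 12, the second index as a covariate, and leaving out each mouse. Leaving out the duodenum library of mouse 27 or the colon library of mouse 30 was added after the data were seen.

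Named genes were all listed gut peptides, up to 4 per direction in each other list (largest difference among those past the threshold, with a mean of at least 1 CPM in the higher region), and 8 per direction over all protein-coding genes with at least 20 CPM there and no overlap between regions. Other genes are given with values from their lists, and families in the closing section were picked after their values were seen. A few genes that the rule names are counted in their lists but not reported here. The members and lists were chosen with earlier results of these data known. Promoter sequences are from RefSeq (GRCm38.p6).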

Additional observations from a re-analysis of the deposited data

Results flagged for a closer look

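Of 171 groups of 5 or 6 libraries searched for a value far from the rest, 13 had one. Chance flags about 1 in 20 groups. In 9 of these the library was the S_wm duodenum library of mouse 27. It was low for Neurod1 (144 CPM, others 594 to 770), Scg3 (97.3, others 391 to 441), Cck (1114, others 4011 to 5398), Sct (378, others 1442 to 1829), Ghrl (344, others 1289 to 1982), Cartpt (11.04, others 43.9 to 75.1) and the neuronal and glial sum (37.8, others 169 to 195). It was high for the enterocyte sum (59240, others 8477 to 10020) and the colonocyte sum (3729, others 1139 to 1228), all in CPM.

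The other 4 were spread over different libraries. Cpe, a prohormone carboxypeptidase gene, had 362 CPM in the S_al colon library of mouse 32 against 676 to 740. The Paneth sum was 6.58 CPM in the S_wm colon library of mouse 31 against 15.8 to 21.9, and the goblet sum 4165 CPM in the VSG colon library of mouse 18 against 9559 to 14250. The S_al duodenum library of mouse 13 had 17182463 counts against 6200830 to 8033375.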

How the results depend on the processing

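The count of 8208 genes was 8240 with DESeq2 size factors, 8435 with DESeq2, 9913 of 38077 without a filter, 7546 of 12843 with a stricter filter, 8322 with all 48 libraries, 8211 in an additive model and 7767 with mouse 12 by its segment code. It was 7940 to 8597 without 1 mouse in turn (S_al 4032 to 5516, S_wm 4270 to 5068, VSG 4672 to 6103), 8746 without the duodenum library of mouse 27 and 8139 without the colon library of mouse 30. With mouse as a fixed replicate block it was 8202, of which 7762 were shared with the main result, and with mouse as a random replicate block 8751, of which 8094 were shared; the block changed no call among the 103 named genes that passed, and Nts passed under the fixed block (log2 difference -0.50). The test of variation with surgery, at 0 genes, gave 11 with DESeq2 and 2 with the fixed replicate block.

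The second index as a covariate gave the only large change: 1892 genes in all, 2031 in S_al, 1622 in S_wm and 1162 in VSG, with 1857 of the 1892 shared. Qdpr (0.10), Gch1 (0.19), Gpr142 (0.69) and Rab3c (0.25) then changed sign. The counts higher and lower became 4 and 6 for peptides, 1 and 3 for EEC factors, 17 and 0 for Hox genes, 2 and 3 for channels, 2 and 0 for innate sensing genes, 0 and 3 for serotonin genes, 3 and 3 for granins, 4 and 7 for regional factors, 2 and 1 for metabolite receptors, 4 and 2 for hormone receptors, 4 and 11 for transporters, 5 and 2 for exocytosis genes and 0 and 1 for immediate early genes. Index and region cannot be told apart, and few libraries bear on this fit. Nts also passed with DESeq2 (-0.46), without each of mice 17, 21, 25 and 27, and without the colon library of mouse 30 (-0.51, adjusted p = 0.049) or the duodenum library of mouse 27 (-0.54). Iapp passed without mouse 29 (0.59) and with the second index as a covariate (2.66, edgeR adjusted p = 0.015). At this depth 17 Hox genes and 4 peptides had too few counts to test, and whether more depth would change that was not tested.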

Other observations

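Gene families outside the lists, picked by symbol after their values were seen, are given as counts, beside the 55.2% of all genes that passed, 28% higher and 27.2% lower in colon. The share that passed was close to that for the Wnt and Frizzled, MHC, glutamate receptor, Sox and claudin genes. The liver-type plasma protein genes are not a family by symbol prefix and were listed by hand after the values were seen. They include Afp and Pzp, already named above for their large differences, so their count is not a separate test. All 11 tested fell in colon, with a median log2 difference of -7.37, among them Afp (-9.96), Pzp (-9.64) and the antitrypsin gene Serpina1c (-9.08). Of 41 cytochrome P450 genes, 12 rose and 22 fell (median -1.25). Among 43 sialyl-, fucosyl- and GalNAc-transferase genes, which build mucin-type and other glycans, 29 rose and 8 fell (median 0.56), with St6galnac6 (6.71), St6gal1 (6.31) and Fut9 (6.92) high in colon and Galnt13 (-2.35) low. Antigen presentation genes of the MHC fell in 10 of 18 cases and rose in 1 (median -0.74), including H2-Eb1 (-3.82) and H2-Aa (-3.56), and the immune and enterocyte sums were highest in the duodenum library of mouse 27.

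Forkhead genes rose in 10 and fell in 7 of 20 cases. Foxd2 had 0.0543 to 0.8995 CPM in duodenum (median 0.410) and 50.7 to 81.7 CPM in colon (median 63.7), a log2 difference of 7.48 ± 0.15 (edgeR adjusted p = 4.4e-29), whereas Foxq1 fell (-3.44). Among 8 Sox genes, Sox1 (6.61) and Sox21 (4.70) rose and Sox5 (-4.25) and Sox6 (-1.76) fell. Of 17 Wnt and Frizzled genes, 5 rose and 5 fell, with Wnt5a at 5.0, Fzd8 at 3.48, Wnt9b at -5.13 and Wnt3 at -4.11. Claudins of the tight junction split as well, with Cldn14 (7.95) and Cldn8 (6.83) higher and Cldn1 (-6.44) lower in colon. Semaphorin genes rose in 10 and fell in 2 of 17 cases, among them Sema3e (4.47). Of 10 ionotropic glutamate receptor genes, 4 rose and 2 fell, with Grin3a at 8.08 and Grik4 at -6.37.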
